A study of Mus musculus with 21 samples.

Results

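Transcripts of the arginine methyltransferases and of the proteins that form the methylosome with PRMT5 were followed in mouse hematopoietic stem cells (HSCs). The 9 genes were those of the deposited count table with the symbols Prmt1, Prmt2, Prmt3, Prmt6, Carm1, Prmt5, Prmt7, Wdr77 and Clns1a, of 21000 gene symbols in all, and each was measured in every library. RNA was sequenced from HSCs sorted from bone marrow of wild-type C57BL/6 mice as CD150+CD48-Lin-Sca-1+c-Kit+ cells. For such mice the study's methods also name absence of Flt3, except where EPCR was stained. Each library took 3000 to 3500 cells, and the 21 libraries formed 7 groups of 3. Treated mice were 10 weeks old at the first administration and received 5-fluorouracil (5-FU), an antimetabolite that kills dividing blood cells, at 150 mg/kg intraperitoneally, or phosphate-buffered saline (PBS) in its place.

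The groups were PBS once and 5-FU once, both taken on day 6, 5-FU once taken on day 21, PBS 3 times and 5-FU 3 times, both taken on day 6 after the last administration, 5-FU 3 times taken on day 21, and untreated HSCs of mice aged 2 years, called old. Library totals ran from 22184885 to 38649033 counts, and a member had between 321 and 8959 counts in a library. Administration was on day 1, so day 6 was 5 days and day 21 was 20 days after the drug, and repeated administrations were 21 days apart. How many mice gave the cells of a library is not stated for the treated groups, while the old libraries are each described as coming from a single mouse. PBS was sampled on day 6 alone, so a comparison of day 21 with PBS also compares different days.

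Arginine methyltransferases move methyl groups from S-adenosylmethionine to arginine side chains of histones, RNA-binding proteins and signaling proteins. Type I enzymes (PRMT1, PRMT2, PRMT3, PRMT6 and CARM1) make asymmetric dimethylarginine, PRMT5 makes symmetric dimethylarginine, and PRMT7 makes monomethylarginine. PRMT5 works bound to WDR77 in the methylosome, and CLNS1A brings it Sm proteins, whose methylation precedes the assembly of spliceosomal small nuclear ribonucleoproteins. Both PRMT1 and PRMT5 are known to be needed in adult blood formation, PRMT5 also for keeping HSCs.

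On the mm10 genome (GRCm38, GENCODE annotation), the type I genes were Prmt1 at chr7:44975989-44986568, minus strand, Prmt2 at chr10:76207222-76237865, minus strand, Prmt3 at chr7:49778346-49858265, plus strand, Prmt6 at chr3:110246109-110250998, minus strand, and Carm1 at chr9:21546894-21592623, plus strand. Prmt5 was at chr14:54507187-54517525, minus strand, Wdr77 at chr3:105959369-105970037, plus strand, Clns1a at chr7:97696634-97720796, plus strand, and Prmt7 at chr8:106210936-106252794, plus strand. Prmt1 and Prmt5 shared no exon base with another annotated gene, and Prmt2 shared 2.48% of its exon bases with a microRNA gene inside it. The shares were larger for Prmt6 (23.4%, antisense C130013H08Rik), Carm1 (21.1%, antisense Yipf2) and Wdr77 (31.5%, antisense Atp5f1 and the overlapping Gm42890). The kit did not keep the strand, so reads of these 3 genes and of their neighbours cannot be told apart in the shared exons.

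Prmt1 and Prmt2 were the members past the test's threshold in both comparisons with PBS on day 6, in opposite directions, and the bases before their starts are printed for that reason. They come from the RefSeq promoter table (build GRCm38.p6), which held 8 of the 9 members, and cover up to 250 bases before the RefSeq start, 5′ to 3′ on the gene's strand. For Prmt1 the 102 bases that lie outside the annotated gene are given (chr7:44986569-44986670, minus strand), and for Prmt2 all 250 bases (chr10:76237866-76238115, minus strand). Capitals mark a match on either strand to the E-box CACGTG or to the ETS-type motif CCGGAAG.
Prmt1: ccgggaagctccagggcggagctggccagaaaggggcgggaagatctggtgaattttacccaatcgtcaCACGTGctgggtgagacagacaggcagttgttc
Prmt2: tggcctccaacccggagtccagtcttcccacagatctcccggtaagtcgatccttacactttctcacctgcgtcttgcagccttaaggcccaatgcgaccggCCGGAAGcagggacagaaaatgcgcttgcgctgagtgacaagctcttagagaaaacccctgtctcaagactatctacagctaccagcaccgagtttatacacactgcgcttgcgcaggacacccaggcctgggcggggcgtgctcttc
The E-box began 181 bases before the RefSeq start of Prmt1, and the ETS-type motif began 148 bases before that of Prmt2. Within 250 bases, Prmt3 and Clns1a also held the E-box, which occurred in 6.02% of 32851 promoters of the same length, and Clns1a also held CCGGAAG, which occurred in 6.91% of them. Prmt5 held 4, Prmt1 held 3, and Prmt2 and Prmt3 each held 1 match to CCAAT, of which 33.8% of promoters held at least 1. These letter matches describe the sequences and were not tested for binding.

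Levels were first compared between genes in the PBS libraries, as counts-per-million values (CPM) per kilobase of the longest transcript. The union of all exons, another possible length, was 3425 bases for Prmt1 and 3958 for Prmt5, against longest transcripts of 2147 and 2691 bases. Ranks and overlaps between genes given here hold for the longest transcript and can differ with the union. In HSCs given PBS once, Prmt5 was highest at 70.2 ± 3.06 CPM per kilobase (SD, n = 3), followed by Prmt1 at 52.7 ± 0.911 and Prmt2 at 33.3 CPM per kilobase. Carm1 came next with 27.0, and the ranges of these 4 genes did not overlap in that order. The gap was narrow between Prmt2, from 30.9 CPM per kilobase, and Carm1, up to 30.7 CPM per kilobase. Prmt3, Wdr77 and Clns1a lay between 12.7 and 14.2 CPM per kilobase, each overlapping with the next of the 3, Prmt7 was at 9.41, and Prmt6 was lowest at 5.06 CPM per kilobase. Prmt5 stayed first and Prmt6 last in each of the 7 groups. In both 5-FU groups on day 6, the ranges of Prmt5 and Prmt1 overlapped with the longest transcript as length. Their means were 84.3 and 80.3 CPM per kilobase after 1 administration and 92.8 and 87.2 after 3. Prmt2 came after Carm1 in those groups. It also did so on day 21 after 5-FU 3 times, with overlap (29.1 and 29.6 CPM per kilobase). On day 6 after 5-FU 3 times Prmt2 lay at 12.9 CPM per kilobase, between Wdr77 and Clns1a and overlapping with both.

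**Figure D1:**
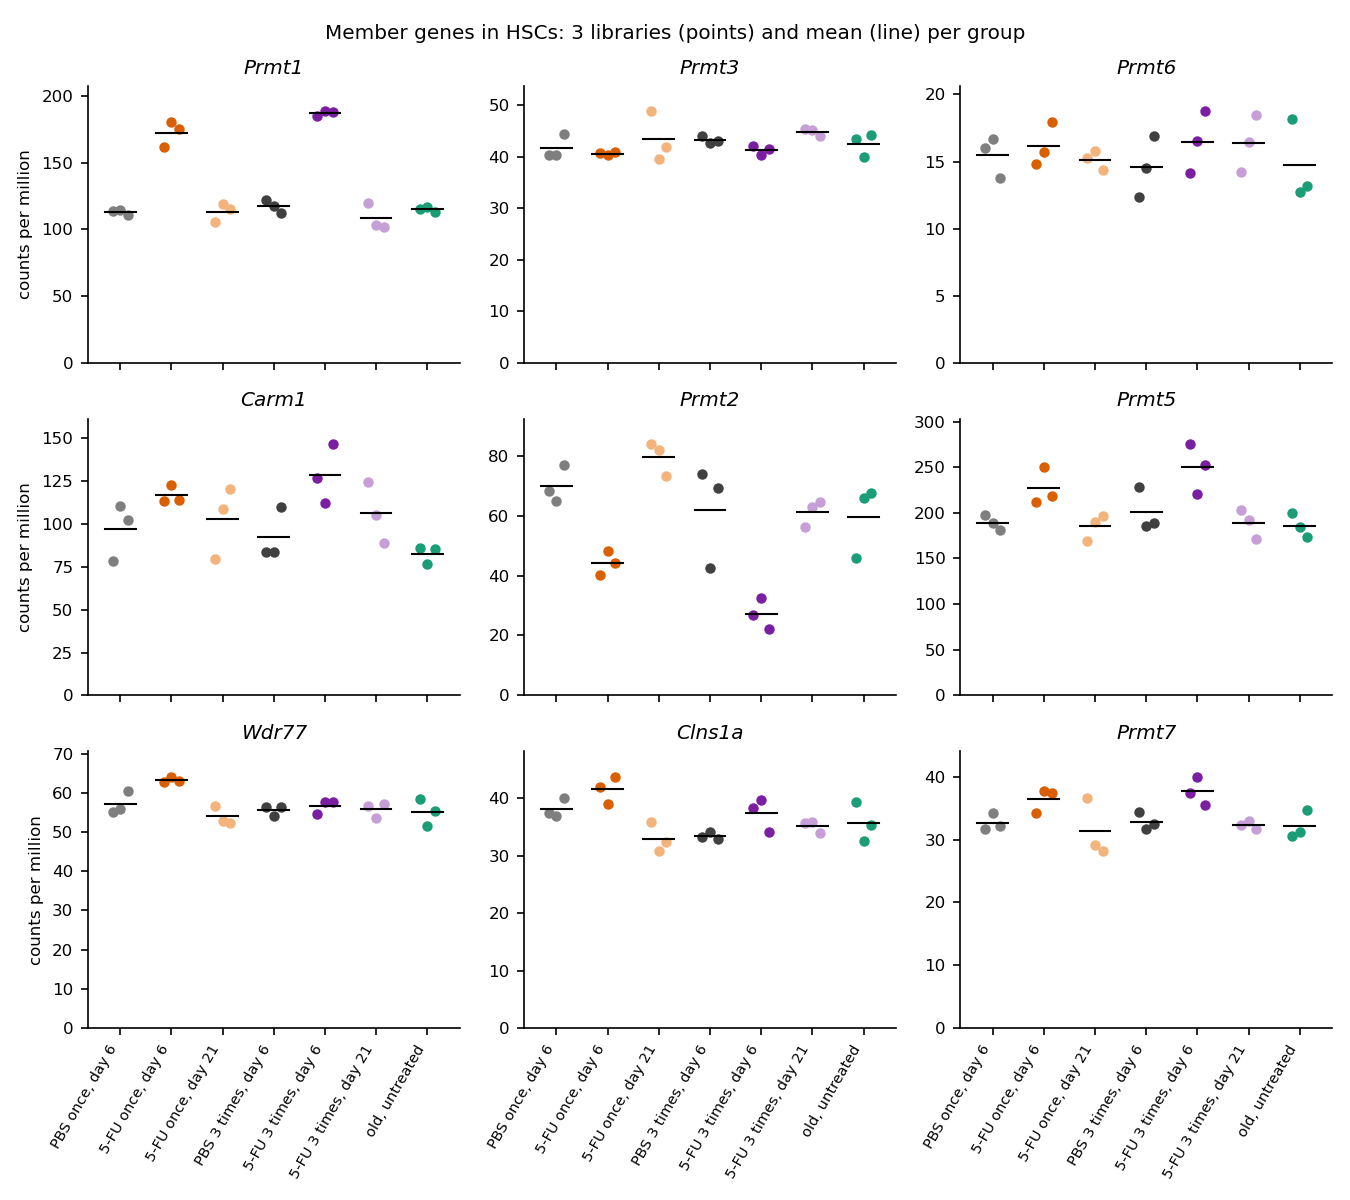
CPM of the 9 members in the 21 libraries, one panel a gene, with the 7 groups on the horizontal axis, a point for each library and a line for the mean of 3. The 6 day 6 libraries of 5-FU-treated HSCs lie above the 15 others for Prmt1, from 162 to 189 against 102 to 122 CPM, and at the bottom of the range for Prmt2, from 22.2 to 48.3 against 42.5 to 84.0 CPM.

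The first question was how the members differed between 5-FU-treated and PBS-treated HSCs on day 6 after a single administration. In the edgeR test, 2 of the 9 members passed an adjusted p of 0.05, Prmt1 upwards and Prmt2 downwards, beside 22.2% of the 12759 genes tested, 11.5% higher and 10.6% lower. The 3 libraries of one group lay apart from the 3 of the other for 6 of the 9 members, beside 43.8% of all genes tested. When single libraries were left out, 2 members were still called, while 1563 to 1947 of all genes were in place of 2827. Nothing about the members as a set is read from these shares. The median log2 fold change of the 9 members was 0.14, against −0.00056 over all genes tested. The gate on day 6 after 5-FU also took cells with dim c-Kit and was set without staining for Mac-1, so the drug and the gate cannot be told apart in comparisons with those libraries. For this and every later comparison, a lower or higher CPM in sorted cells cannot be told apart from a smaller or larger share of the cells that hold the transcript.

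Prmt1 encodes the enzyme that makes most of the asymmetric dimethylarginine in mammalian cells. It measured 114, 115 and 111 CPM in the PBS libraries and 162, 180.3 and 176 CPM in the 5-FU libraries. The lowest 5-FU library was above every PBS library. Prmt1 rose by a log2 fold change of 0.60 (SE 0.068, adjusted p = 0.00255 by edgeR), a fold of 1.52 with a 95% interval of 1.36 to 1.69.

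Prmt3 encodes the methyltransferase of the ribosomal protein RPS2. Its level was 40.4, 40.3 and 44.5 CPM after PBS and 40.7, 40.4 and 40.9 CPM after 5-FU, with overlap, and its log2 fold change of −0.047 (SE 0.073) had an adjusted p of 0.682. The 95% interval of its fold ran from 0.860 to 1.09. Prmt6, whose protein methylates histone H3, was low and also overlapped, with 16.0, 16.7 and 13.7 CPM against 14.8, 15.7 and 17.9 CPM and a log2 fold change of 0.051 (SE 0.12, adjusted p = 0.788). Leaving out 1 library turned the sign of both values in some cases, so neither has a direction here.

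Carm1, a coactivator that methylates histone H3 at transcribed genes, measured 78.4, 110.1 and 102 CPM after PBS and 114, 123 and 114 CPM after 5-FU. The groups did not overlap, but the PBS libraries were spread widely, and the log2 fold change of 0.26 (SE 0.13) had an adjusted p of 0.173. Prmt2, whose protein is a weak methyltransferase that binds nuclear receptors, went the other way. It measured 68.1, 64.9 and 77.0 CPM after PBS and 40.3, 48.3 and 44.3 CPM after 5-FU, so that each 5-FU library was below each PBS library. Prmt2 fell by 0.67 on the log2 scale (SE 0.10, adjusted p = 0.00579 by edgeR), a fold of 0.629 with a 95% interval of 0.534 to 0.742.

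Prmt5 measured 197, 188 and 181 CPM after PBS and 212, 250.2 and 218 CPM after 5-FU. The groups did not overlap, and the log2 fold change of 0.26 (SE 0.082) missed the threshold with an adjusted p of 0.0628 by edgeR. DESeq2, run as an alternative, gave it an adjusted p of 0.0281. Its partner Wdr77, the WD-repeat protein that holds substrates for PRMT5, had 55.0, 55.9 and 60.4 CPM after PBS and 62.8, 64.2 and 63.0 CPM after 5-FU, without overlap, and a log2 fold change of 0.14 (SE 0.070, adjusted p = 0.190). Clns1a overlapped between the groups, with a log2 fold change of 0.12 (SE 0.079, adjusted p = 0.322). Prmt7 measured 31.7, 34.2 and 32.1 CPM after PBS and 34.3, 37.8 and 37.5 CPM after 5-FU, and its log2 fold change of 0.15 (SE 0.078) had an adjusted p of 0.197.

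After 3 administrations, 5-FU-treated HSCs were again compared with their own PBS controls on day 6. Prmt1 and Prmt2 passed the test, 2 of the 9 members, beside 18.1% of 12729 genes tested, 9.84% higher and 8.3% lower. For 5 of the 9 no library of one group lay within the range of the other, beside 40.3% of all genes, and the median log2 fold change was 0.16 against −0.012 over all genes. Without single libraries 1231 to 1582 of all genes were called in place of 2310, and 1 to 3 members. This comparison shares no library with the one after a single administration.

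Prmt1 measured 122, 117 and 112 CPM after PBS and 185, 189 and 188 CPM after 5-FU, a clear gap between the groups. It rose by a log2 fold change of 0.65 (SE 0.069, adjusted p = 0.00282 by edgeR), a fold of 1.57 with a 95% interval of 1.40 to 1.76. Prmt2 measured 73.9, 42.5 and 69.3 CPM after PBS and 26.7, 32.4 and 22.2 CPM after 5-FU. The second PBS library was far below the other PBS libraries and still above each 5-FU library. Prmt2 fell by 1.22 on the log2 scale (SE 0.23, adjusted p = 0.0145 by edgeR), a fold of 0.431 with a 95% interval of 0.296 to 0.627. Without that PBS library Prmt2 fell by 1.42 (adjusted p = 0.00945 by edgeR). Without the third 5-FU library its log2 fold change was −1.09 and its adjusted p of 0.0544 missed the threshold, so that 1 member was left.

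Of the others, Carm1 had the largest difference that missed the threshold. It measured 83.4, 83.5 and 109.8 CPM after PBS and 126, 112 and 147 CPM after 5-FU, without overlap, and its log2 fold change was 0.46 (SE 0.15, adjusted p = 0.0762 by edgeR). DESeq2 (adjusted p = 0.0213), the fit over all 21 libraries (adjusted p = 0.0437) and the fit without the third PBS library (adjusted p = 0.0422) each called it. Prmt5 overlapped between the groups, with 228, 185 and 189 CPM after PBS and 276, 221 and 252 CPM after 5-FU, a log2 fold change of 0.29 (SE 0.12) and an adjusted p of 0.130. The fit over all 21 libraries called it with an adjusted p of 0.0341.

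Wdr77 measured 56.4, 54.2 and 56.3 CPM after PBS and 54.7, 57.8 and 57.7 CPM after 5-FU, and its log2 fold change of 0.0077 (SE 0.072, adjusted p = 0.952) had no stable sign across scalings. The 95% interval of its fold was 0.893 to 1.13. The remaining members had log2 fold changes of 0.18 for Prmt7 (SE 0.081, adjusted p = 0.175), 0.16 for Prmt6 (SE 0.16, adjusted p = 0.534), 0.14 for Clns1a (SE 0.084, adjusted p = 0.291) and −0.086 for Prmt3 (SE 0.070, adjusted p = 0.435). Prmt3 had narrow groups that did not overlap, at 42.7 to 44.0 CPM after PBS and 40.5 to 42.1 CPM after 5-FU.

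**Figure D2:**
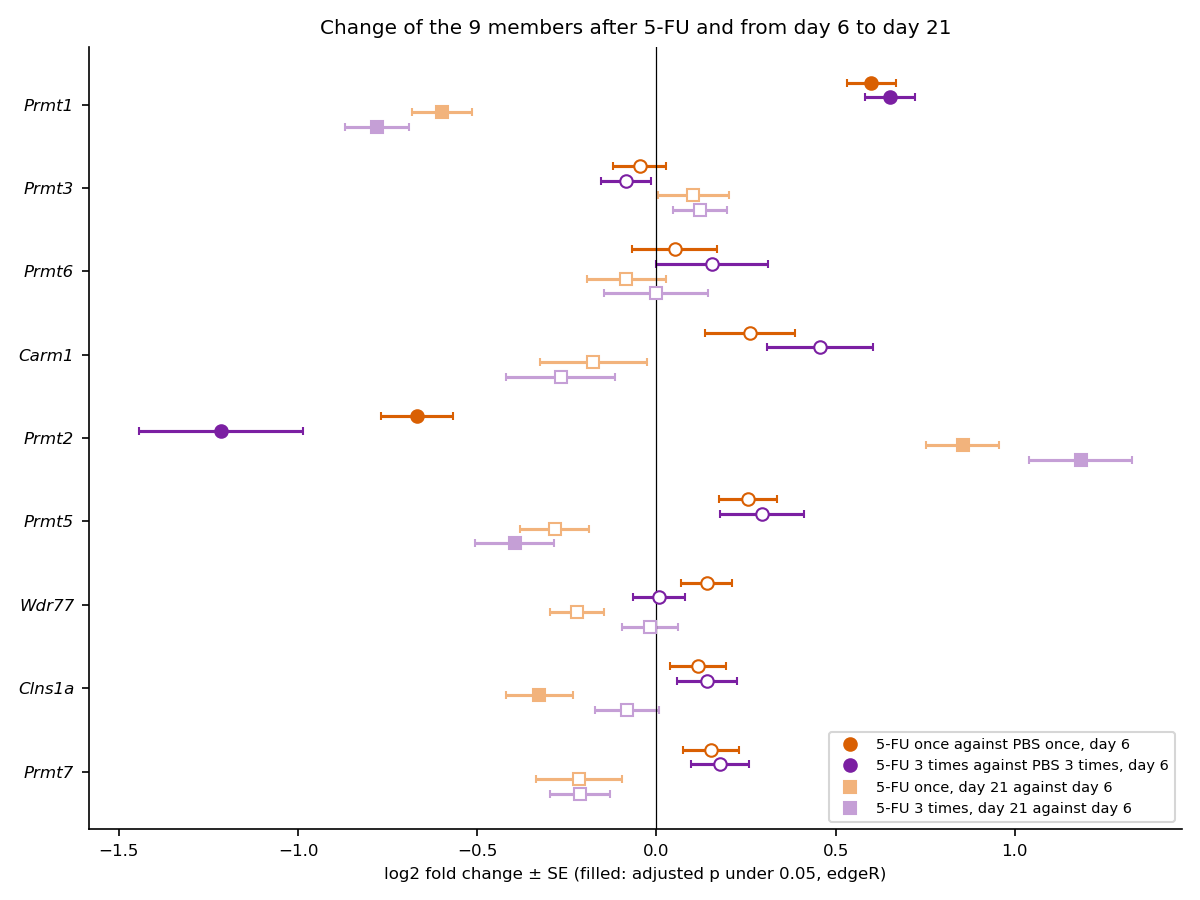
Log2 fold change of each member (horizontal axis) with its standard error in 4 comparisons, the 2 of 5-FU with PBS on day 6 (circles) and the 2 of day 21 with day 6 after 5-FU (squares), 3 libraries against 3 each, filled where the adjusted p was under 0.05. Prmt1 and Prmt2 are filled in all 4 and change sign between circles and squares, while the other circles lie between −0.086 and 0.46 and are open.

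Whether the response differed between 1 and 3 administrations was tested as an interaction over the 12 day 6 libraries. None of the 9 members passed in edgeR, none in DESeq2 and none had an unadjusted p under 0.05, beside 0.650% of 13227 genes called. For Prmt1 the difference in log2 fold change was 0.065 (SE 0.085, adjusted p = 0.778), and the 95% interval of the ratio of the folds ran from 0.919 to 1.19. For Prmt2 it was −0.53 (SE 0.27, adjusted p = 0.394), with an interval from 0.457 to 1.04. For Carm1 it was 0.21 (SE 0.21, adjusted p = 0.699).

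Recovery was followed by comparing day 21 with day 6 after 5-FU. These comparisons use the same day 6 libraries as the comparisons with PBS, so their values are given side by side and are no separate support. With a single administration the days also differ in a mark on the column names, described below, that cannot be told apart from the day. After a single administration 3 of the 9 members passed the edgeR test, 1 upwards and 2 downwards, beside 26.0% of 12589 genes, 12.3% higher and 13.7% lower, and for 5 the groups did not overlap, beside 46.2% of all genes. After 3 administrations 3 passed, again 1 upwards and 2 downwards, beside 19.5% of 12553 genes, 8.68% higher and 10.8% lower, and for 5 the groups did not overlap, beside 41.0%.

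Prmt1 was at 106, 119 and 115 CPM on day 21 after a single administration and at 120.2, 104 and 102 CPM after 3. All 6 values were below the lowest day 6 value after 5-FU. Prmt1 fell by 0.60 (SE 0.084, adjusted p = 0.00397) and by 0.78 (SE 0.090, adjusted p = 0.00221) on the log2 scale. Prmt2 was at 84.0, 81.8 and 73.2 CPM on day 21 after a single administration and at 56.2, 62.9 and 64.5 CPM after 3, each above every day 6 library of the same schedule. It rose by 0.85 (SE 0.10, adjusted p = 0.00228) and by 1.18 (SE 0.14, adjusted p = 0.00279) on the log2 scale.

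Clns1a measured 42.0, 39.1 and 43.8 CPM on day 6 and 35.9, 30.8 and 32.4 CPM on day 21 after a single administration. It fell by 0.33 on the log2 scale (SE 0.093, adjusted p = 0.0395), a call that held without the first day 21 library and was lost without each of the other 5 libraries in turn, with an adjusted p of up to 0.125. Prmt5 went from 276, 221 and 252 CPM on day 6 to 203, 193 and 172 CPM on day 21 after 3 administrations. It fell by 0.40 (SE 0.11, adjusted p = 0.0435 by edgeR), a call that held without the second day 6 library and was lost without each of the other 5, with an adjusted p of up to 0.127. After a single administration the log2 fold changes of Prmt5 (−0.28, SE 0.097, adjusted p = 0.0677) and Wdr77 (−0.22, SE 0.076, adjusted p = 0.0706) missed the threshold, and DESeq2 called both. Prmt7 had a log2 fold change of −0.21 after 3 administrations (SE 0.083, adjusted p = 0.116).

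On day 21 the members were also set against the PBS libraries of day 6. None of the 9 passed after a single administration, where 0.221% of 12647 genes were called, and none after 3, where 0.0475% of 12632 genes were called. DESeq2 called no member either, and no unadjusted p was under 0.05 in either comparison. Prmt1 had log2 fold changes of 0.0023 (SE 0.080, adjusted p = 0.992) and −0.12 (SE 0.092, adjusted p = 0.633), with 95% intervals of the fold of 0.879 to 1.14 and 0.793 to 1.07. Prmt2 had 0.19 (SE 0.10, adjusted p = 0.472) and −0.021 (SE 0.20, adjusted p = 0.978). The interval of the Prmt2 fold after 3 administrations ran from 0.710 to 1.37. Clns1a had the lowest value after a single administration, −0.21 (SE 0.093, adjusted p = 0.389), and was the 1 member without overlap, beside 21.0% of all genes. After 3 administrations all 9 overlapped, beside 21.4% of all genes that did not. Carm1 had the highest value after 3 administrations, 0.20 (SE 0.16, adjusted p = 0.641).

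On day 21, HSCs given 5-FU 3 times were also compared directly with HSCs given it once. No member passed in edgeR, where 0.00802% of 12474 genes were called. Prmt2 had the lowest log2 fold change, −0.39 (SE 0.10, adjusted p = 0.582 by edgeR), with groups that did not overlap, beside 12.6% of all genes. It was the 1 member with an unadjusted p under 0.05, and DESeq2 called it with an adjusted p of 0.0313. Prmt6 had the highest value, 0.11 (SE 0.13, adjusted p = 0.915).

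**Figure D3:**
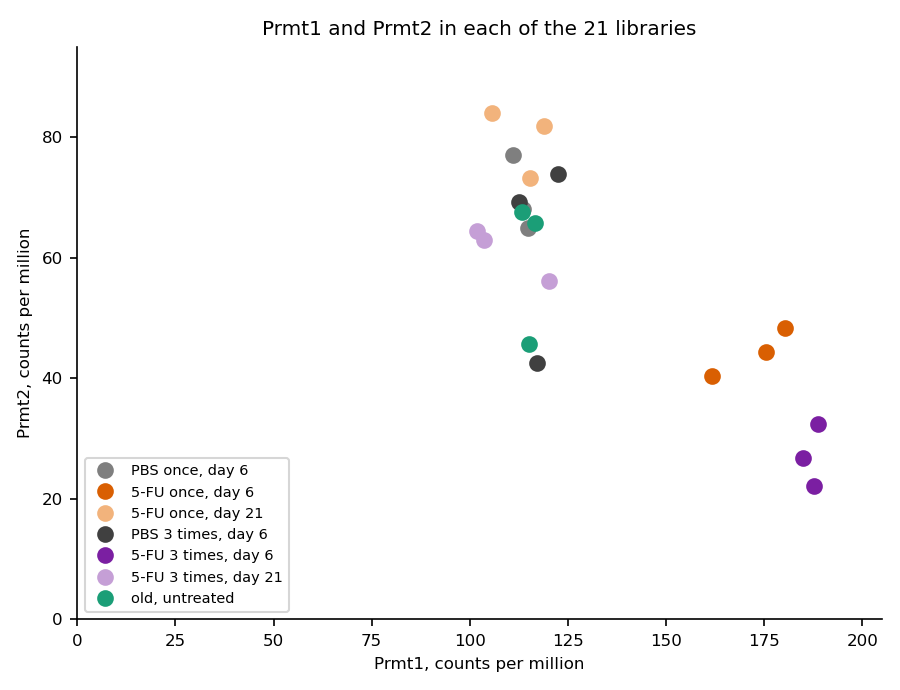
Prmt1 (horizontal axis) and Prmt2 (vertical axis) in CPM in each of the 21 libraries, coloured by group. The 6 day 6 libraries of 5-FU-treated HSCs lie to the lower right, with 3.73 to 4.01 times as much Prmt1 as Prmt2 after 1 administration and 5.83 to 8.48 times after 3.

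The ratio of Prmt1 to Prmt2 within a library needs no scaling between libraries, and it was chosen after the values had been seen. It averaged 1.63 ± 0.168 (SD, n = 3) in HSCs given PBS once and 3.90 ± 0.150 on day 6 after 5-FU once. After 3 administrations it averaged 2.01 ± 0.646 after PBS and 7.08 ± 1.33 after 5-FU. On day 21 the ratio was 1.43 ± 0.161 after a single administration and 1.79 ± 0.305 after 3, and in old HSCs it was 1.99 ± 0.461. The highest ratio outside the 5-FU groups of day 6 was that of the second library of PBS 3 times, 2.76, below the lowest of the 6, 3.73.

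The share of Prmt1 among the 7 methyltransferase members, per kilobase, was compared next. It was 24.9 ± 0.537% after PBS once and 32.4 ± 0.704% after 5-FU once on day 6, a difference of 7.54 percentage points without overlap. After 3 administrations it was 25.7 ± 1.98% after PBS and 33.7 ± 1.64% after 5-FU, a difference of 8.0 points without overlap. The two-sided exact permutation test gave p = 0.1 for both, the smallest value that 3 libraries against 3 allow. The share uses the same libraries and counts as the calls of Prmt1 and Prmt2 and is no separate support for them. On day 21 the share was 24.3 ± 0.576% and 24.1 ± 1.08%, and in old HSCs it was 26.4 ± 0.406%. Prmt2 took 15.7 ± 1.40% after PBS once and 8.50 ± 0.257% after 5-FU once, and 13.7 ± 2.86% and 5.00 ± 1.13% with 3 administrations. Prmt5 held 33.1 ± 1.83% and 34.0 ± 1.16% after PBS and 5-FU once, with overlap.

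**Figure D4:**
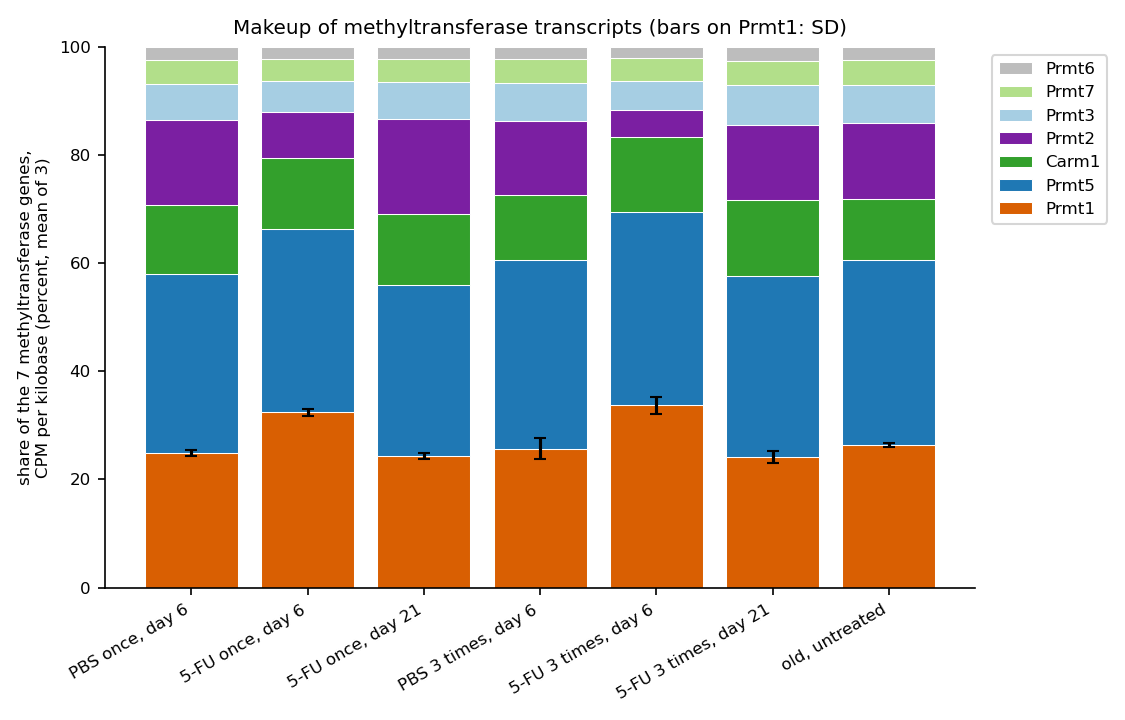
Mean share of each of the 7 methyltransferase members in their summed CPM per kilobase (vertical axis, percent) in the 7 groups of 3 libraries, with the SD of Prmt1 as error bars. Prmt1 takes 32.4% and 33.7% on day 6 after 5-FU and between 24.1% and 26.4% in the other groups, and the Prmt2 band is narrowest on day 6 after 5-FU.

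Within the methylosome, the log2 ratio of Wdr77 to Prmt5 in a library was −1.73 ± 0.133 after PBS once and −1.84 ± 0.110 after 5-FU once, a difference of −0.11 (exact permutation test, two-sided, p = 0.4). With 3 administrations it was −1.85 ± 0.149 and −2.13 ± 0.198, a difference of −0.29 (exact permutation test, two-sided, p = 0.2). The libraries of the groups overlapped both times, so a different proportion of the partner to the enzyme was not detectable with 3 libraries a group.

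Between HSCs given PBS 3 times and once, no member passed in edgeR or DESeq2, beside 0.0156% of 12806 genes called in edgeR. Clns1a had the lowest log2 fold change, −0.19 (SE 0.072, adjusted p = 0.349), was the 1 member with an unadjusted p under 0.05, and did not overlap, with 37.4, 36.9 and 40.2 CPM after PBS once and 33.2, 34.2 and 32.9 CPM after 3 times, beside 20.0% of all genes. Prmt5 had the highest value, 0.090 (SE 0.095, adjusted p = 0.758). The column names of the libraries of PBS once and of 5-FU once on day 6 carry a mark that the other 15 lack and whose meaning is not stated. The groups and this mark cannot be told apart in this comparison, in the interaction over the 12 day 6 libraries, in those of 5-FU once on day 21 with its day 6 or PBS libraries, and in that of old HSCs with PBS once, whereas in each comparison of 5-FU with PBS on day 6 either all libraries carry it or none does.

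Old HSCs, from untreated mice, were compared with each of the PBS groups, whose mice were younger and had been injected. No member passed in edgeR or DESeq2 and none had an unadjusted p under 0.05, beside 0.996% of 12847 genes called against PBS 3 times and 1.88% of 12855 against PBS once. Every member overlapped with both PBS groups, where 16.9% and 20.6% of all genes did not. Carm1 measured 85.7, 76.6 and 85.4 CPM in old HSCs and had the lowest log2 fold change in both, −0.17 (SE 0.13, adjusted p = 0.758) and −0.23 (SE 0.13, adjusted p = 0.500). Clns1a was highest against PBS 3 times, 0.086 (SE 0.098, adjusted p = 0.879), and Prmt3 against PBS once, 0.026 (SE 0.091, adjusted p = 0.945). Prmt1 measured 115, 117 and 113 CPM in old HSCs, within the 111 to 122 CPM of the PBS libraries. Prmt2 measured 45.7, 65.7 and 67.7 CPM, where the first old library, like the second of PBS 3 times, was within the range of the day 6 libraries of 5-FU once.

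Among the 7 group means, Prmt1 was ordered 5-FU 3 times on day 6 (187 ± 2.01 CPM), 5-FU once on day 6 (172 ± 9.71 CPM), and then the other 5 groups, whose means of 109 to 117 CPM overlapped with their neighbours. Prmt2 ran from 5-FU once on day 21 (79.7 ± 5.69 CPM) through 5 groups that overlapped with their neighbours down to 5-FU 3 times on day 6 (27.1 ± 5.12 CPM), which lay apart. In Wdr77 only the highest group, 5-FU once on day 6 (63.3 ± 0.746 CPM), lay apart from the next. For Prmt3, Prmt6, Carm1, Prmt5, Prmt7 and Clns1a every group overlapped with the next in the order. The highest library was 3.79 times the lowest for Prmt2, 1.91 times for Carm1, 1.85 times for Prmt1 and 1.24 times for Prmt3.

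The other genes around arginine methylation were read from lists, beside 22.2% of all genes called after 5-FU once and 18.1% after 5-FU 3 times. Of 4 further methyltransferase genes in the table, Prmt8 had 0 counts in every library, which allows up to 0.0850 to 0.128 CPM by a floor of 3 counts. Prmt9, Ndufaf7 and Mettl23 were tested and none passed on day 6, and Prmt9 had log2 fold changes of −0.22 (SE 0.17, adjusted p = 0.383) and 0.21 (SE 0.15, adjusted p = 0.373). Of 8 PRMT5 adaptors and PRMT1-binding regulators, 3 rose and 1 fell after 5-FU once. Erh, a small protein that binds PRMT1, had 152 to 166 CPM after PBS and 256 to 289.6 CPM after 5-FU and rose by 0.76 (SE 0.074, adjusted p = 0.00161). Btg1, an antiproliferative PRMT1 partner, fell by 0.70 (SE 0.12, adjusted p = 0.00885), and Grwd1 rose by 0.31 (SE 0.069, adjusted p = 0.0196). The third that rose was Strap, named after its value was seen, by 0.29 (SE 0.073, adjusted p = 0.0233). After 3 administrations 1 of the 8 rose, Erh by 0.61 (SE 0.067, adjusted p = 0.00306), while Btg1 had −0.27 (adjusted p = 0.140). Erh shared 29.2% of its exon bases with antisense genes.

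Of 11 Sm and LSm genes, whose proteins pass through the methylosome, 5 rose after 5-FU once and 2 after 3 administrations, none fell, and the median log2 fold changes were 0.31 and 0.09. Lsm4, a subunit of the ring on U6 RNA, rose in both comparisons, by 0.39 (SE 0.090, adjusted p = 0.0225) and by 0.39 (SE 0.079, adjusted p = 0.0174). Snrpd1, which encodes SmD1, had log2 fold changes of 0.49 (SE 0.096, adjusted p = 0.0131) and 0.26 (SE 0.094, adjusted p = 0.107), and Snrpf, which encodes SmF, 0.56 (SE 0.10, adjusted p = 0.00974) and 0.34 (SE 0.11, adjusted p = 0.0793). Snrpf shared 85.4% of its exon bases with antisense genes. Of 8 genes of the SMN complex, which loads the Sm proteins onto RNA, 1 rose after 5-FU once and 4 after 3 administrations. Smn1 was in both counts, with 0.44 (SE 0.13, adjusted p = 0.0495) and 0.60 (SE 0.12, adjusted p = 0.0162).

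Of 16 genes of the cycle that supplies S-adenosylmethionine, 6 rose and 1 fell after 5-FU once, and 6 rose and none fell after 3 administrations. Shmt2 and Shmt1, the mitochondrial and cytosolic enzymes that take a carbon unit from serine, rose in both. Shmt2 had 157 to 170.0 CPM after PBS once and 227 to 251 CPM after 5-FU once, with log2 fold changes of 0.54 (SE 0.068, adjusted p = 0.00351) and, after 3 administrations, 0.63 (SE 0.074, adjusted p = 0.00371). Shmt1 had 0.57 (SE 0.091, adjusted p = 0.00694) and 0.53 (SE 0.099, adjusted p = 0.0140). Mat2b, a regulatory subunit of the S-adenosylmethionine synthetase, fell by 0.37 after 5-FU once (SE 0.065, adjusted p = 0.00902) and had −0.33 after 3 administrations (adjusted p = 0.0588). Of 7 genes tested for readers and removers of methylarginine, 1 rose after 5-FU once and none passed after 3 administrations. That one was Smndc1, a splicing factor with a Tudor domain, with 0.42 (SE 0.10, adjusted p = 0.0253) and 0.13 (SE 0.15, adjusted p = 0.602).

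Of 29 genes whose proteins are known to carry methylarginine, 10 rose and 1 fell in each comparison, and the median log2 fold changes were 0.20 and 0.19. Npm1, a nucleolar chaperone, had 694 to 729 CPM after PBS once and 1191 to 1309 CPM after 5-FU once and rose by 0.80 (SE 0.059, adjusted p = 0.000805) and, after 3 administrations, by 0.60 (SE 0.078, adjusted p = 0.00484). Hnrnpa1, a splicing regulator, rose by 0.69 (SE 0.074, adjusted p = 0.00221) and by 0.75 (SE 0.076, adjusted p = 0.00265). Runx1, a transcription factor of blood stem cells, fell by 0.61 (SE 0.083, adjusted p = 0.00412) and by 0.53 (SE 0.072, adjusted p = 0.00535). Pfkfb3, whose protein makes an activator of phosphofructokinase, had −0.26 (SE 0.12, adjusted p = 0.163) and −0.0098 (SE 0.081, adjusted p = 0.944). Npm1 and Hnrnpa1 have processed copies in the genome, and how the counting treated such copies is not stated.

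**Figure D5:**
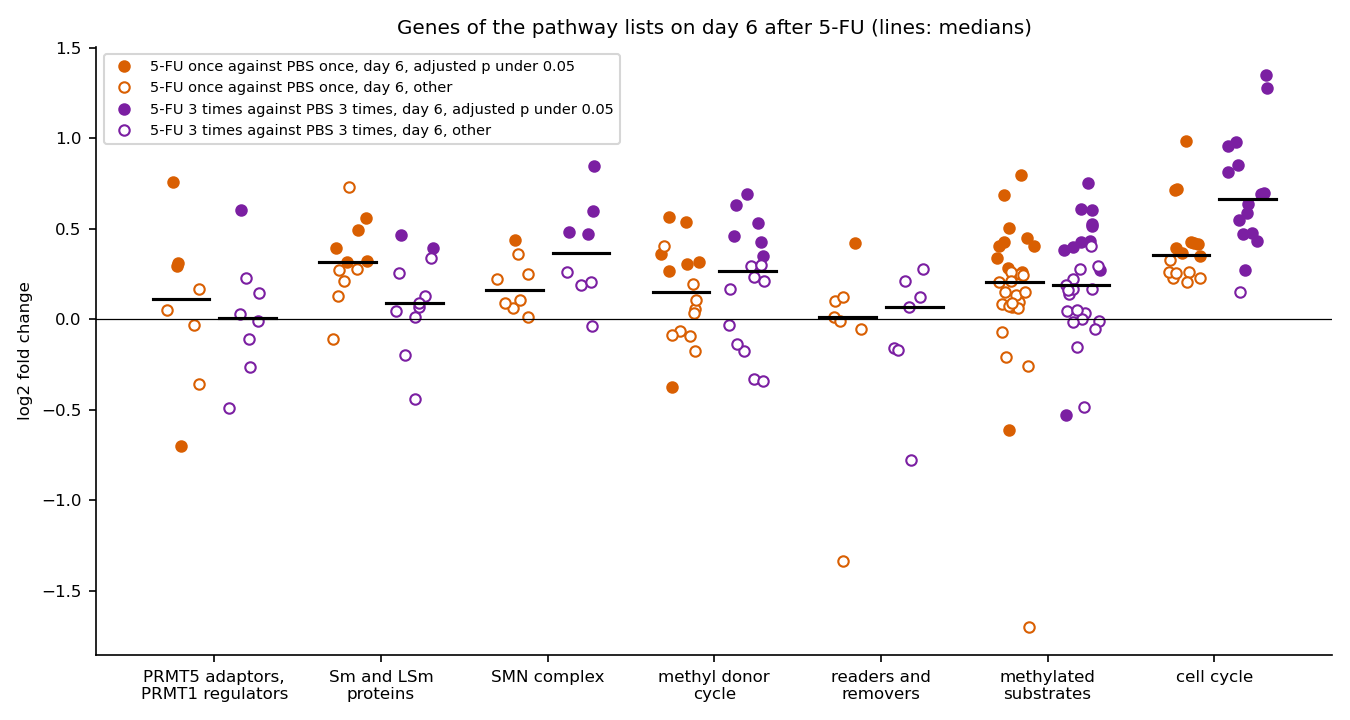
Log2 fold change (vertical axis) of each tested gene in 6 lists around arginine methylation and in a cell cycle list, on day 6 after 5-FU once (orange) and 3 times (purple) against PBS, filled where the adjusted p was under 0.05, with a line at the median. Cell cycle genes lie highest, with 9 and 15 of 16 called, all upwards, and medians of 0.36 and 0.67, beside 22.2% and 18.1% of all genes called.

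The likeness of patterns was measured over the 21 libraries as the root mean square difference of centred log2 CPM among 9266 genes with a mean of at least 10 CPM. The genes closest to Prmt1 were Usp1 (0.0758), Hnrnpa1 (0.0844) and Nutf2 (0.0848), against 0.309 for Prmt1 around its own mean. Those closest to Prmt5 were Ccnh (0.0788), Anapc5 (0.0945) and Cdc37 (0.0954), against 0.186. Those closest to Prmt2 were Atat1 (0.263), Srgap3 (0.267) and Patj (0.280), farther from it than the neighbours of Prmt1 and Prmt5 were from theirs, against 0.522 for Prmt2 itself.

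Cell cycle genes, as a sum, and Kit moved with the same groups. The summed level of 16 cell cycle genes was 1369 to 1441 CPM after PBS once, 1872 to 2081 CPM after 5-FU once on day 6 and 1057 to 1218 CPM on day 21, and 1202 to 1363, 2088 to 2333 and 1095 to 1156 CPM in the same groups with 3 administrations. Kit, which encodes the c-Kit surface receptor of the sort, averaged 1075 ± 86.2 CPM after PBS once and 597 ± 22 CPM after 5-FU once on day 6, and 1012 ± 55.3 and 757 ± 25.6 CPM with 3 administrations. Of 18 HSC markers, 3 rose and 6 fell after 5-FU once, beside 11.5% of all genes tested higher and 10.6% lower. The summed level of these markers was 5907 to 6396 CPM after PBS and 4664 to 4798 CPM after 5-FU. Summed over their lists, 13 myeloid markers went from 104 to 129.9 CPM to 68.7 to 83.6 CPM, 10 megakaryocyte markers from 214 to 258 CPM to 161 to 173 CPM, and 9 erythroid markers from 44.2 to 59.9 CPM to 79.5 to 98.5 CPM. The sums of the 9 T and NK cell markers in the table were 22.3 to 29.4 and 13.9 to 17.2 CPM, and those of 9 B cell markers 38.4 to 46.5 and 35.8 to 44.9 CPM, with Cd3e, Cd8a, Il7r, Ms4a1, Pax5 and Rag1 at 0 in the 6 day 6 libraries of PBS once and 5-FU once. The sums of 9 endothelial and stromal markers were 185 to 316 and 167 to 194 CPM. After 3 administrations 1 of the 18 HSC markers rose and 7 fell, beside 9.84% of all genes tested higher and 8.3% lower. The sum of these markers was 5917 to 6260 CPM after PBS and 4406 to 4522 CPM after 5-FU. Myeloid markers then summed to 96.8 to 130.1 and 61.9 to 87.2 CPM, megakaryocyte markers to 258 to 276 and 228 to 255 CPM, and erythroid markers to 43.6 to 57.6 and 61.0 to 96.7 CPM. T and NK cell markers summed to 25.7 to 33.4 and 20.0 to 24.2 CPM, and B cell markers to 43.2 to 52.7 and 36.5 to 36.7 CPM, with Cd3e, Cd3g, Cd8a, Igll1, Pax5 and Rag1 at 0 in these 6 libraries. Endothelial and stromal markers overlapped, at 201 to 219 and 194 to 279 CPM. The part of these differences in those of the members was not tested.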

How the data were processed

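HSC libraries were made with SMART-Seq v4 and Nextera XT and read on a NextSeq 500, in 3 independent experiments for each cell type per the study's methods. The authors aligned reads with TopHat 2.0.13 to mm10 and quantified with Cuffdiff of Cufflinks 2.2.1. The deposited counts are whole numbers for 21000 symbols in 21 libraries, unnormalized, and the program that made them is not given in the sources used here.

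Groups came from the sample labels. CPM used trimmed mean of M-values (TMM) factors over all 21 libraries. Each comparison was fitted in edgeR 4.0.16 (R 4.3.3) on its own libraries with filterByExpr, TMM, glmQLFit and the quasi-likelihood F test, Benjamini-Hochberg adjustment over all genes kept and a threshold of 0.05. Intervals of 95% used the t distribution with the degrees of freedom of that fit. Single within-library quantities were tested with exact permutation tests. Alternatives were DESeq2 1.42.0, other scalings, no filter, a block for the replicate number, 1 fit over all 21 libraries and leaving out each library. In simulated counts for 5-FU once against PBS once (12759 genes), 200 genes were changed to 0.25 or 4 times their level. There edgeR recovered 92.5% of changed genes with 5.13% of calls false, and DESeq2 97.5% with 21.1% false. Smaller changes, such as those of the members, were not simulated, so this recovery does not apply to them. Between replicates, counts varied 16.8 to 37.2 times as much as sampling alone gives, so no library was a copy. The floor of 3 counts covers counting error only.

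The members and lists were chosen with earlier results of these data known. Named were all 9 members, up to 3 genes of each list with the largest change among those called after 5-FU once and a mean of at least 50 counts, the 3 genes closest in pattern to Prmt1, Prmt2 and Prmt5, Pfkfb3 and Kit. Genes outside this rule were chosen after their values were seen. Gene positions and lengths came from GENCODE on GRCm38, motifs from RefSeq promoters.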

Additional observations from a re-analysis of the deposited data

How the results depend on the processing

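The calls of Prmt1 in the comparisons of 5-FU with PBS on day 6 and of day 21 with day 6 held in all alternatives, and so did those of Prmt2 except without the third library of 5-FU 3 times on day 6. The number of members called moved from 2 to 4 for 5-FU 3 times against PBS in the fit over all 21 libraries. There the number of all genes called went from 2310 to 2944. When single libraries were left out, 1 to 3 members were called, beside 1231 to 1582 of all genes. For day 21 against day 6 after 5-FU once the number of members moved from 3 to 5 with DESeq2 and with all 21 libraries. Without single libraries it ranged from 2 to 4, beside 1736 to 2978 of all genes. After 3 administrations it ranged from 2 to 3, beside 1351 to 1744 of all genes. DESeq2 called 1 member, Prmt2, in 3 administrations against 1 on day 21, where edgeR called 0. Nothing about the members as a set is read from these counts, and the causes were not tested.

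Some values that missed the threshold changed sign. With library size alone as scaling, Wdr77 had −0.092 for 5-FU 3 times against PBS, Prmt1 −0.067 for 5-FU once on day 21 against PBS and Prmt3 −0.012 for old HSCs against PBS once. Without single libraries the same values ranged from −0.010 to 0.037, from −0.035 to 0.054 and from −0.0086 to 0.072. After 5-FU once Prmt6 ranged from −0.029 to 0.11 and Prmt3 from −0.072 to 0.0034. Prmt2 on day 21 after 5-FU 3 times against PBS ranged from −0.23 to 0.13, and Prmt5 between the PBS groups from −0.011 to 0.14.

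After each gene's group mean was subtracted, the deviations of same-numbered libraries in the compared groups were nearly uncorrelated (correlations of −0.0454 to 0.0741). For 5-FU once on day 21 against day 6, all 3 still correlated best with their own number (0.0222 to 0.0741). In the other comparisons 0 to 2 did. With the replicate block Prmt2 had 0.015 on day 21 after 5-FU 3 times against PBS, Carm1 was called for 5-FU 3 times against PBS (0.46, adjusted p = 0.0376 by edgeR), and Clns1a (adjusted p = 0.0543) and Prmt5 (adjusted p = 0.0519) lost their calls between the days. Clns1a and Prmt5 also lost these calls with library size alone as scaling, and each call held in 5 of 12 alternatives. The log2 ratio of Wdr77 to Prmt5 had p = 0.5 and 0.25 in the exact permutation test with the block. The share of Prmt1 differed by 6.14 points after 5-FU once when counts were not divided by length, against 7.54. Without single libraries it ranged from 7.15 to 7.84 and, after 3 administrations, from 7.09 to 9.13 points. The log2 ratio of Wdr77 to Prmt5 ranged from −0.17 to −0.04 and from −0.38 to −0.19.

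Over all genes, DESeq2 called 725 and 592 on day 21 against PBS, where edgeR called 28 and 6, and 161 for 3 administrations against 1 (edgeR 1), 547 between the PBS groups (2), 569 and 824 for old HSCs (128 and 242) and 715 for the interaction (86). The fit over all 21 libraries gave 257, 185, 16 and 19 for the first 4 of these, library size alone gave 83 and 15 on day 21, and RLE scaling gave 3 of the 6. The replicate block gave 3, 0, 0, 0, 30, 104 and 55, and 1509 in place of 2310 for 5-FU 3 times against PBS. Without single libraries, all-gene counts on day 6 fell by over 1.5 times without the second or the third 5-FU library or the second PBS library after 5-FU once, and without each library but the second of 5-FU after 3 administrations. Between the days they ranged from 1736 to 2978 (3272 with all libraries) and from 1351 to 1744 (2450), lowest without the second and the third day 6 library, respectively. They ranged from 1 to 32 and from 1 to 4 on day 21 against PBS, were 0 for 3 administrations against 1 and 0 to 1 between the PBS groups, and ranged from 20 to 76 and from 111 to 150 for old HSCs and from 38 to 170 for the interaction. The lowest member count in a library was 321, and how much of the spread of the members was counting error was not tested.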
